A study of Mus musculus with 18 samples.

Results

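A set of 8 genes of the early neural and ectodermal programme was followed in mouse induced pluripotent stem cells (iPSC): Pax6, Zic2, Lhx2, Sox1, Sox3, Sox11, Nes and Tubb3. They were chosen by name, and every non-control probe that the array files list under one of these names was taken, which gave 15 probes among 41174. All 15 probes and all 8 genes passed the filter on dim probes, and 24968 genes were measured in all. The study measured RNA of iPSC deficient in Dnmt3a and Dnmt3b, the enzymes that place new methyl groups on DNA, and of control iPSC, on 18 Agilent arrays that each carried 2 dyes.

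The RNA was of 5 kinds. The deficient iPSC were 3 clones named 8, A6 and B2 (labelled Dnmt3ab deficient), each measured once beside mouse embryonic fibroblasts (MEF) and once beside V6.5 ESC, an established mouse embryonic stem cell line. The same 3 clones were measured again in a state that the labels describe as showing some signs of differentiation, called differentiating clones here, and each of them was on an array with each of the 4 control iPSC lines 3, 4, 5 and 6. The labels give the control lines no genotype beyond the word control, and MEF and V6.5 ESC were 1 RNA each. All iPSC had been grown on irradiated MEF feeders and given 1 or 2 passages on gelatin without new feeders before the RNA was taken. A clone or line is the replicate in the comparisons among iPSC. Nothing in the labels says how the clones relate to each other, so those p-values measure the spread between these clones and lines. The comparisons with V6.5 ESC and MEF took the log2 ratios of all 18 arrays as separate values, so clones and lines count more than once. Their p-values measure the spread between arrays, most of which carried differentiating clones and controls.

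The deficient clones, MEF and V6.5 ESC were scanned on 1 day (6 arrays on 2 slides) and the differentiating clones and controls on another (12 arrays on 3 slides). Deficient and control iPSC therefore never shared an array or a day, and genotype and scan day cannot be told apart in that comparison. Per channel, the share of probes called well above background ran from 69.17 to 78.44% on the earlier scan day and from 75.1 to 92.29% on the later one. Dnmt3a itself differed from the controls by a log2 difference of -1.49 ± 0.278 (SE; adjusted p = 0.00538, limma) in the deficient clones and of -1.67 ± 0.212 (adjusted p = 0.0268) in the differentiating clones. Dnmt3b was called in neither (-0.32 ± 0.449, adjusted p = 0.594, and -0.16 ± 0.365, adjusted p = 0.896). The files do not say whether either probe lies in a deleted part.

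Pax6, Zic2, Lhx2, Sox1, Sox3 and Sox11 encode DNA-binding transcription factors. Sox1 and Sox3 belong with Sox2 to the group of Sox factors that marks neural progenitors, Pax6, Zic2 and Lhx2 pattern the neural plate, eye and forebrain, and Sox11 acts as progenitors become neurons. Nes encodes nestin, an intermediate filament of neural progenitors that fibroblasts and other dividing cells also make, and Tubb3 encodes the beta-tubulin that is commonly used to mark young neurons. In bulk RNA, fewer cells of a type and less RNA per cell cannot be told apart.

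Because the clones are labelled deficient in enzymes of DNA methylation, the promoters of members that differed from the controls are shown with their CpG dinucleotides, the sites those enzymes act on, in capitals. RefSeq sequences of the 250 bases before a transcription start (build GRCm38.p6, on the strand of the gene) were matched to 6 of the 8 genes at 8 starts; Zic2 and Sox3 were the others. Methylation was not measured here, so the sequences are descriptive.
Lhx2, chr2:38339031-38339280, plus strand: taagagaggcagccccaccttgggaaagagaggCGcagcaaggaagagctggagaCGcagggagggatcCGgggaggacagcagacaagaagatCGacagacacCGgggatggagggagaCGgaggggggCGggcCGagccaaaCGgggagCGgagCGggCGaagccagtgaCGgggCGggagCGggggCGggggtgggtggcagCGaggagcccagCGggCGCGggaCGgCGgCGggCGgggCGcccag
Nes, chr3:87970843-87971092, plus strand: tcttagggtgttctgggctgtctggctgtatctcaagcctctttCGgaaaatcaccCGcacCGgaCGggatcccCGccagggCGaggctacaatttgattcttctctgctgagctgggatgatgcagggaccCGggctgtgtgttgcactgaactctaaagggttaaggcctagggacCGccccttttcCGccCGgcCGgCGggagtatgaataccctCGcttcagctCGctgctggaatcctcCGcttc
Pax6, chr2:105668646-105668895, plus strand: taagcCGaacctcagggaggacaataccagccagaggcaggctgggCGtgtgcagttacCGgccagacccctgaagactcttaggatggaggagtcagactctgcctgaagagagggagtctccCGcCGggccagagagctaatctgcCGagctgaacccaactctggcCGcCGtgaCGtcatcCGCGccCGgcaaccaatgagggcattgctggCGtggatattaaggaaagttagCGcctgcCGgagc
Tubb3, chr8:123411303-123411552, plus strand: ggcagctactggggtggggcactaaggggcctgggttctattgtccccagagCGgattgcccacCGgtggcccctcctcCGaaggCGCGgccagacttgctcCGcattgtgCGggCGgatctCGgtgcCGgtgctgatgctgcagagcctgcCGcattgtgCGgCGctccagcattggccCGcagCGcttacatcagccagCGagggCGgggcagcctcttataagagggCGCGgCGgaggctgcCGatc
These windows held 25 CpG in Lhx2, 15 in Nes, 15 in Pax6 and 21 in Tubb3. The median over 32851 RefSeq promoters of this length was 6, and 27.3% of them held at least as many as Nes. All 8 member starts, with 15 to 29 CpG, lay above that median. The letters TATAAA were on neither strand of the 8 windows, and 12.4% of all promoters held them.

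Values are normalised log2 signals, 1 per clone or line, combined from its arrays. A difference is first group minus second on the log2 scale, genes with an adjusted p below 0.05 over all genes are named called (limma, Benjamini-Hochberg), and SE is the error of the fitted difference. For deficient against control iPSC and for the 2 states of a clone, which both cross scan days, the planned line values used the correlation between the channels of a spot. On data simulated with noise per spot and no shift between scan days, this gave too many calls among unchanged genes, and plain means of each line's channels gave fewer. In these comparisons a gene is therefore said to have changed only where it was called with both kinds of line value. Neither kind can tell a shift between scan days from a difference between groups.

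The deficient clones had more Pax6, Zic2, Lhx2 and Tubb3 RNA than the control lines, and less Nes. These 5 members were called with both kinds of line value, 4 higher and 1 lower, while 29.2% of all genes were called both ways (9.71% higher and 19.5% lower). By the planned line values alone 6 members were called, 4 higher and 2 lower, against 46.5% of all genes (15.2% higher and 31.2% lower). By channel means alone 29.7% of all genes were called, and Sox1, the second lower member, was not. The lines of the groups did not overlap for 6 members, against 52% of all genes. A call in this comparison was thus common over the whole array. Pluripotency markers moved as well: the mean log2 signal of 14 of them was 13.82 to 14.17 in the deficient clones and 13.20 to 13.68 in the controls, and 6 were higher and none lower both ways. Their part in the member differences was not tested.

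**Figure D1:**
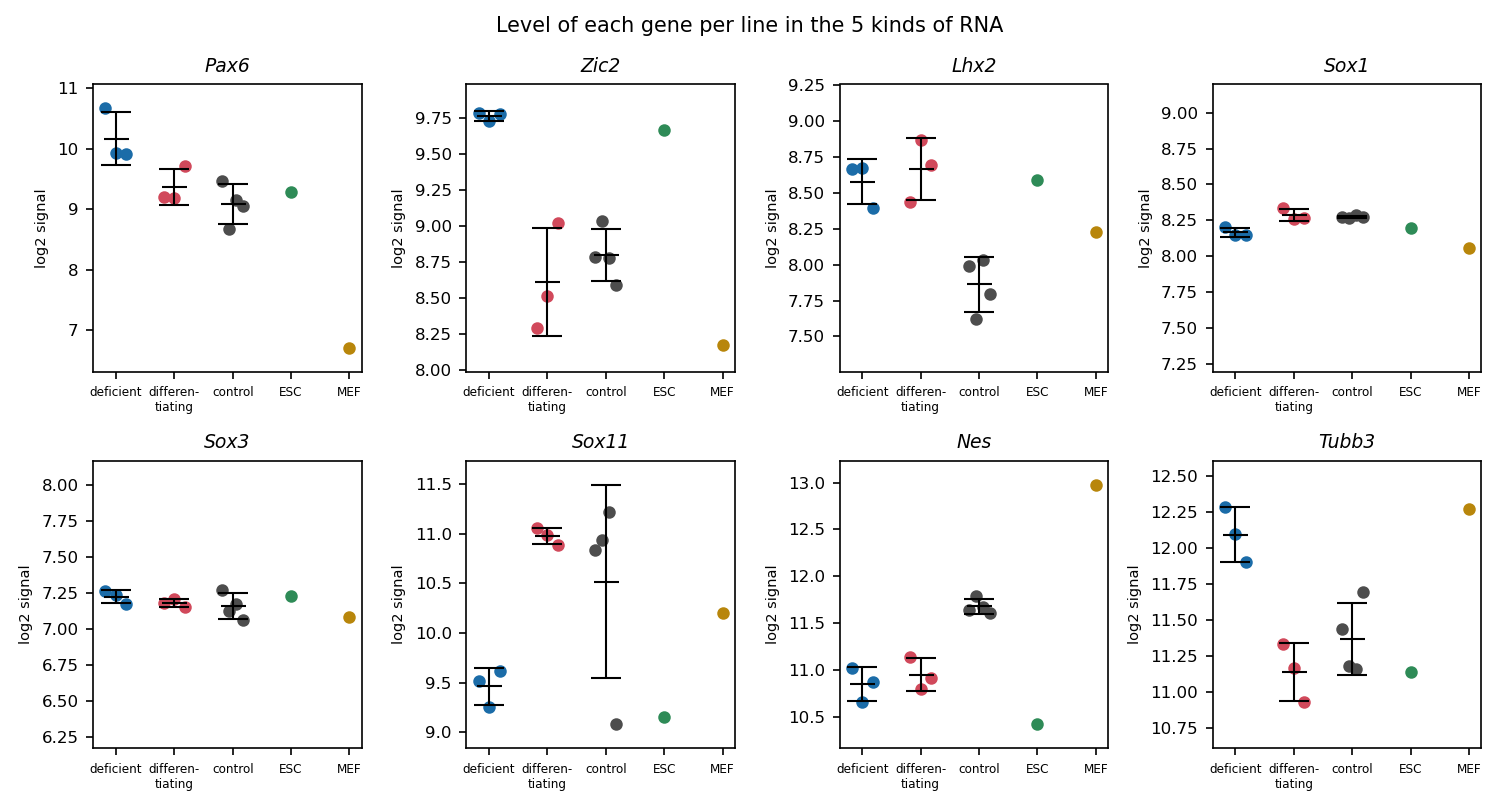
Log2 signal of each gene (y axis) in the 5 kinds of RNA (x axis). Points are clones or lines, with the order of points within a group being 8, A6, B2 or 3, 4, 5, 6, and bars are mean ± SD for groups of 3 or 4. Zic2 is near 9.77 in the 3 deficient clones and at 9.67 in V6.5 ESC, and control line 6 lies apart for Sox11 at 9.08.

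Pax6 was at 10.67, 9.93 and 9.91 in deficient clones 8, A6 and B2, and at 9.48, 8.67, 9.15 and 9.05 in control lines 3, 4, 5 and 6. Every deficient clone was above every control, and clone 8 was the highest. The difference was 1.08 ± 0.249, or 2.12-fold (adjusted p = 0.0123, and 0.00715 with channel means). The name Pax6 is on 3 probes. The brightest lies at chr2:105547907-105547966 (build mm7, as the files give it), a second probe spotted 10 times gave 0.61 ± 0.147 in the same direction, and the dimmest, with 1 of 6 deficient channels well above background, gave -0.01 ± 0.0452.

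Zic2 was at 9.79, 9.73 and 9.78 in the deficient clones (probe at chr14:116884204-116884263). In control lines 3 to 6 it was at 8.79, 9.03, 8.78 and 8.59. The deficient clones lay within 0.1 of each other and above all controls, by 0.97 ± 0.0977 or 1.96-fold (adjusted p = 0.000513, and 0.00319 with channel means).

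Lhx2 (probe at chr2:38376724-38376783) was at 8.66, 8.68 and 8.40 in the deficient clones and at 7.99, 7.62, 8.03 and 7.80 in the control lines. The groups did not overlap. The difference was 0.72 ± 0.121, or 1.64-fold (adjusted p = 0.00358, and 0.00678 with channel means).

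Tubb3 (probe at chr8:122062871-122062930, 10 spots) was at 12.29, 12.10 and 11.90 in the deficient clones and at 11.44, 11.18, 11.16 and 11.69 in the control lines. Clone B2 was only a little above control line 6, and the groups did not overlap. The difference was 0.73 ± 0.154, or 1.65-fold (adjusted p = 0.00878, and 0.0213 with channel means).

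Nes (probe at chr3:88094187-88094246, 10 spots) was at 11.02, 10.66 and 10.87 in the deficient clones and at 11.64, 11.79, 11.67 and 11.61 in the control lines. All deficient clones were below all controls, by -0.83 ± 0.0898 or 1.78-fold (adjusted p = 0.000645, and 0.00257 with channel means). MEF had the highest Nes signal of the 5 kinds, at 12.97, and fibroblast markers moved with it. The mean log2 signal of the 20 fibroblast markers, all measured, was 10.78 to 10.89 in the deficient clones, 10.79 to 11.22 in the differentiating clones, 11.45 to 12.18 in the controls and 15.09 in MEF. Of these 20 markers, 14 were lower and 2 higher in deficient than in control iPSC with both kinds of line value (19.5% and 9.71% of all genes). Their part in the Nes difference was not tested.

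Sox1 and Sox3 hardly varied. Sox1 (probe at chr8:12371212-12371271) lay between 8.06 and 8.34 over all 12 lines and states, MEF included. All Sox1 values of the first scan day, 8.06 to 8.20, were below all of the second, 8.26 to 8.34, and 27.2% of all genes split by day in this way. Its difference between deficient and control iPSC was -0.11 ± 0.0308 (adjusted p = 0.0275, and 0.2 with channel means).

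Sox3 (probe at chrX:56286797-56286856) lay between 7.07 and 7.27 over the 12 values. Its signal passed as well above background in 1 of 6 deficient, 11 of 12 differentiating and 11 of 12 control channels, and in no V6.5 ESC or MEF channel, so it passed the filter through the second scan day alone. The difference was 0.07 ± 0.0565 (adjusted p = 0.375).

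Sox11 was at 9.51, 9.26 and 9.61 in the deficient clones. It was at 10.84, 10.94, 11.22 and 9.08 in control lines 3 to 6, so control line 6 lay below all deficient clones and the other control lines above them. The difference was -1.06 ± 0.505 and was not called (adjusted p = 0.13, limma). Without control line 6 it was -1.54 (adjusted p = 0.000415).

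The name Sox11 is on 6 probes of chromosome 12, minus strand (build mm7), and line 6 was the lowest control in each of them. From the probe nearest the 5′ side, at chr12:25177775-25177834, to the one farthest from it, at chr12:25170366-25170425 and 7409 bases away, the differences between deficient and control iPSC were 0.02, -0.35, -0.46, -0.34, -0.83 and -1.06. The last 2 probes carry another transcript accession in the files than the other 4. With all control lines and the planned line values, only the probes at -0.35 and -0.46 were called (adjusted p over probes = 0.0225 and 0.00959, limma). Line 6 was left out once its Sox11 values had been seen, so the calls without it are descriptive. Without line 6, the difference ran from -0.06 at the first probe (adjusted p over probes = 0.358, limma) to -1.54 at the last. Without line 6 all 5 probes after the first were called (adjusted p from 0.000357 to 0.00442, limma). Between the states of a clone the same probes gave -0.16, 0.27, 0.37, 0.34, 0.98 and 1.52. The brightest probe, which stands for the gene, thus had the largest difference of the 6 in both comparisons. The first probe, at 0.02 ± 0.0887 and -0.16 ± 0.0514, was called in neither (adjusted p over probes = 0.876 and 0.0602, limma).

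**Figure D2:**
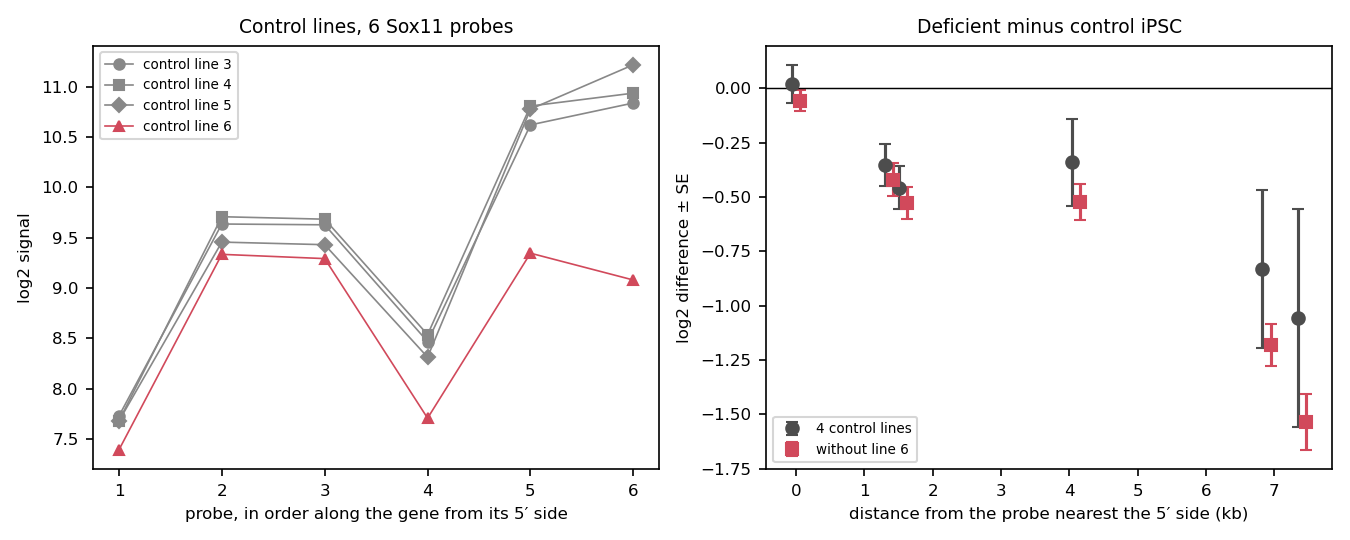
Left, log2 signal (y axis) of the 4 control lines at the 6 Sox11 probes in order along the gene (x axis). Right, log2 difference of deficient minus control iPSC ± SE against distance from the first probe in kb, with all 4 control lines or without line 6; at the last probe it is -1.06 with line 6 and -1.54 without.

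The differentiating clones were compared with the controls within arrays, where both kinds share every array. Lhx2 was higher and Nes lower than in the controls, and the other 6 members were not called. Of all genes, 4.76% were called with the planned line values (2.29% higher and 2.47% lower), 2.33% with channel means and 2.05% with both (0.921% higher and 1.13% lower); both members were among the last. The lines did not overlap for 2 of the 8 members, against 19.7% of all genes. This comparison shares its control lines with the one above. Endoderm markers stood apart too: the mean log2 signal of 19 of them was 10.61 to 11.51 in the differentiating clones and 9.01 to 9.88 in the controls, and 4 were higher and none lower both ways. Their part in the member differences was not tested.

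Lhx2 was at 8.44, 8.87 and 8.70 in differentiating clones 8, A6 and B2, above the 7.62 to 8.03 of the controls. It was higher on 12 of 12 arrays, with log2 ratios from 0.06 to 1.41 after the dye effect was removed. The difference was 0.80 ± 0.136, or 1.75-fold (adjusted p = 0.0342, limma).

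Nes was at 11.14, 10.79 and 10.92 in the differentiating clones, below the 11.61 to 11.79 of the controls. It was lower on 12 of 12 arrays, with log2 ratios from -1.01 to -0.20. The difference was -0.73 ± 0.0879, or 1.66-fold (adjusted p = 0.0268, limma). Both calls were lost without clone A6 or B2 or control line 3 or 4, at differences of 0.70 to 0.85 for Lhx2 (adjusted p from 0.0938 to 0.133) and -0.65 to -0.74 for Nes (adjusted p from 0.074 to 0.127). Of the 20 fibroblast markers 5 were lower and none higher than in the controls, both ways (1.13% and 0.921% of all genes), and their part was not tested.

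**Figure D3:**
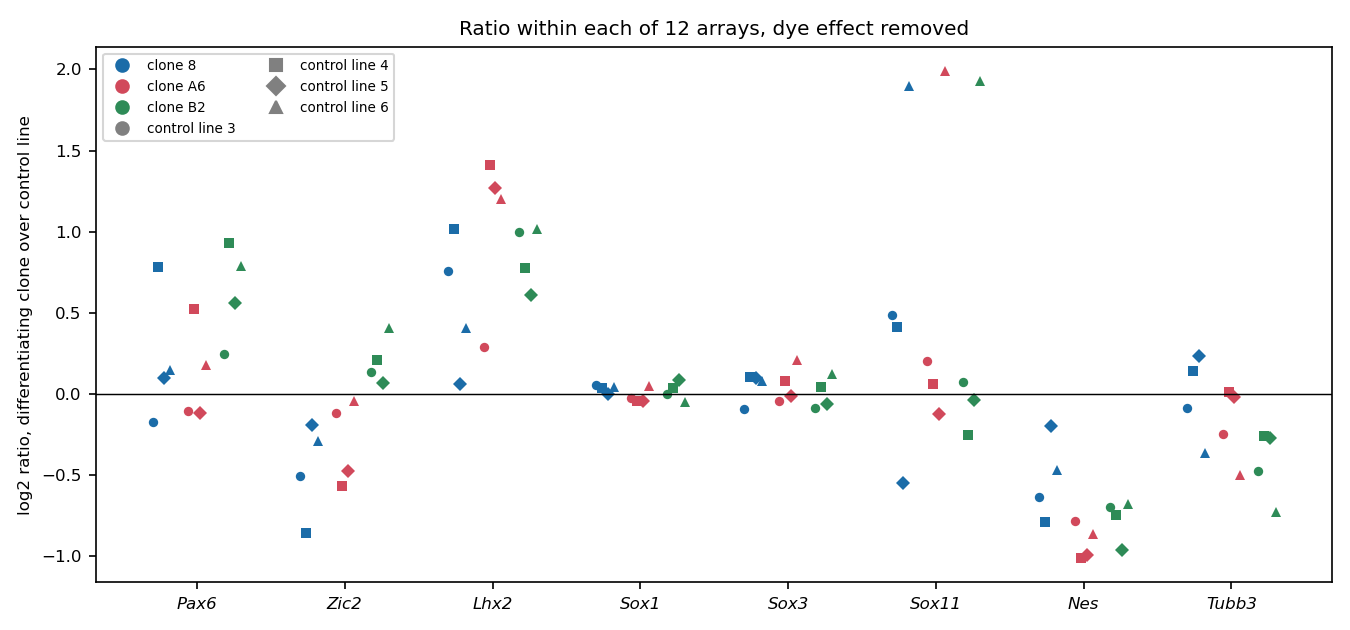
Log2 ratio of differentiating clone over control line (y axis) on each of the 12 arrays for the 8 genes (x axis), with the dye effect removed. Colours mark clones and shapes control lines; all Lhx2 ratios are above 0, all Nes ratios are below 0, and the Sox11 ratios over control line 6 are 1.90 to 1.99.

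Pax6, Zic2 and Tubb3 in the differentiating clones overlapped the controls. Pax6 was at 9.21, 9.18 and 9.72, a difference of 0.28 ± 0.214 (adjusted p = 0.563). Zic2 was at 8.29, 8.51 and 9.02 (-0.19 ± 0.186, adjusted p = 0.692). Tubb3 was at 11.33, 11.17 and 10.93 (-0.23 ± 0.157, adjusted p = 0.511). Clone B2 had the highest Pax6 and Zic2 and the lowest Tubb3 of the 3 clones.

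Sox11 was at 11.05, 10.99 and 10.89 in the differentiating clones, close to control lines 3, 4 and 5 and far above line 6. The difference was 0.46 ± 0.504 (adjusted p = 0.733, limma), and -0.02 without line 6. With the replicate number of the control arrays as a block it was 0.51 and was called (adjusted p = 0.0126, limma). That number marks the slide and the clone as well. The block averaged the ratios over the control lines, so the spread between those lines, with line 6 far below, did not enter this test. Sox1 (0.01 ± 0.0308) and Sox3 (0.02 ± 0.0535) were not called.

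Between the 2 states of a clone, Sox11 was higher and Zic2 and Tubb3 lower in the differentiating state. These 3 members were called both ways, against 30.5% of all genes (18.1% higher and 12.3% lower); with the planned line values 52.7% were called (33.4% higher and 19.3% lower), and with channel means 31%. The difference had 1 sign in all 3 clones for 7 of the 8 members, against 75.8% of all genes. This comparison shares the deficient clone values with that of deficient against control iPSC, so their results are not independent.

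Sox11 was higher in the differentiating state by 1.54 in clone 8, 1.73 in clone A6 and 1.28 in clone B2. The mean difference was 1.52 ± 0.0987, or 2.86-fold (adjusted p = 0.00387, and 0.00766 with channel means).

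Zic2 differed by -1.50, -1.22 and -0.75 in clones 8, A6 and B2, with a mean of -1.16 ± 0.155 (adjusted p = 0.00781, and 0.0135 with channel means). Tubb3 differed by -0.96, -0.93 and -0.97, nearly the same amount in each clone, with a mean of -0.95 ± 0.0372 (adjusted p = 0.00387, and 0.00741 with channel means). Without clone A6 no gene of the array was called with the planned line values, although 10375 had an unadjusted p under 0.05 (limma); Sox11 was then at 1.41, Zic2 at -1.13 and Tubb3 at -0.97, with adjusted p of 0.0517, 0.0642 and 0.0517.

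Pax6 was lower in the differentiating state in each clone, by -1.46, -0.75 and -0.19, and was not called (-0.80 ± 0.258, adjusted p = 0.0623). It was called with processed signals (-0.87, adjusted p = 0.0346), median centring (-1.01, adjusted p = 0.0201), no normalization between arrays (-1.12, adjusted p = 0.0159) and without clone B2 (-1.10, adjusted p = 0.0403). Lhx2 differed by -0.23, 0.19 and 0.30 and Nes by 0.12, 0.13 and 0.05. Neither was called (adjusted p = 0.552 for Lhx2 and 0.101 for Nes). The pluripotency and endoderm markers also differed between the states. The mean log2 signal of 14 pluripotency markers was 13.82 to 14.17 in the deficient and 13.18 to 13.47 in the differentiating clones, and that of 19 endoderm markers was 9.09 to 10.39 and 10.61 to 11.51. Their part in the member differences was not tested.

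**Figure D4:**
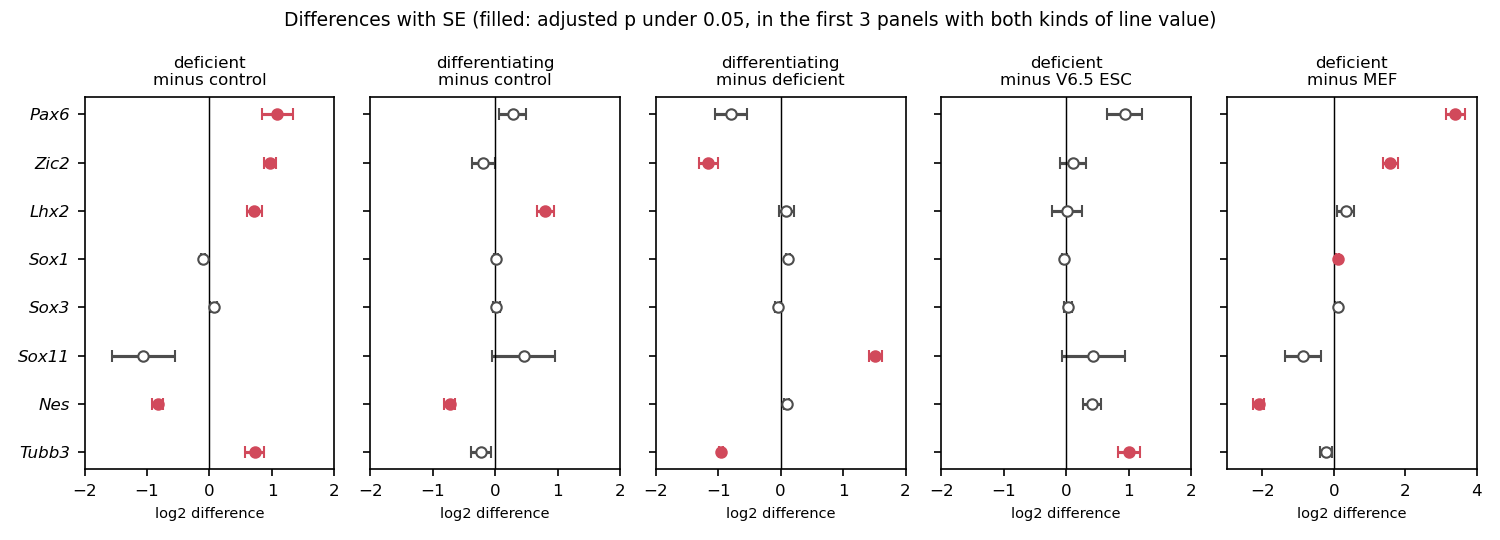
Log2 difference ± SE (x axis) for each gene (y axis) in 5 comparisons; the last panel has a wider axis. Filled points were called, in the first 3 panels with both kinds of line value, as for Zic2 at 0.97, -0.19 (open) and -1.16 in those panels.

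Against V6.5 ESC, on 3 arrays, Tubb3 was the 1 member called, and 5.41% of all genes were called (3.54% higher and 1.87% lower). Tubb3 was at 11.14 in V6.5 ESC, below all 3 deficient clones, and the difference was 1.00 ± 0.171, or 2.01-fold (adjusted p = 0.00231, limma). Without clone A6 it was 0.91 (adjusted p = 0.179) and without clone B2 1.05 (adjusted p = 0.0648), so the call was lost. Pax6 was at 9.29 in V6.5 ESC, a difference of 0.93 ± 0.279 that was not called (adjusted p = 0.0646). Zic2 at 9.67 and Lhx2 at 8.59 in V6.5 ESC were close to the deficient clones, with differences of 0.11 ± 0.209 and 0.01 ± 0.239. Under median centring Zic2 was called (0.90, adjusted p = 0.0132), and the Tubb3 difference was 2.29. The test leaves out the spread of V6.5 ESC and MEF themselves, since each was 1 RNA. The deficient clone was in Cy3 on every V6.5 ESC array and in Cy5 on every MEF array. Dye and reference thus cannot be told apart there, and the dye effect was taken from the 12 arrays of the other scan day. For Sox11 this effect was 0.29, beside a difference from V6.5 ESC of 0.44 ± 0.507 that was not called.

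Against MEF, Pax6, Zic2 and Sox1 were higher in the deficient clones and Nes was lower, and 58.2% of all genes were called (28.2% higher and 30% lower). The brightest Pax6 probe was not well above background on any MEF array, where its measured mean was 6.76 against 10.17 in the deficient clones, so at this probe Pax6 was at least 9.60-fold higher in the deficient clones (adjusted p = 1.47e-08). The Pax6 probe with 10 spots was well above background on 3 of 3 MEF arrays and gave a much smaller difference of 0.94 ± 0.153 (adjusted p over probes = 4.62e-05). The bound sets the mean of the brighter kind against the lowest signal well above background on each array of the dimmer kind, or its own signal where higher. Zic2 was 8.17 in MEF and higher in the deficient clones by 1.58 ± 0.209 (adjusted p = 5.18e-06). Nes differed by -2.11 ± 0.144 (adjusted p = 1.45e-09), and Sox1 by 0.11 ± 0.0362 (adjusted p = 0.015). The Sox1 call was lost without any 1 of the 3 clones (adjusted p from 0.0678 to 0.142) and under median centring (adjusted p = 0.19). Tubb3 was as high in MEF, at 12.28, as in deficient clone 8, and its difference was not called (-0.23 ± 0.171, adjusted p = 0.274). Sox11 was not called at its brightest probe (-0.87 ± 0.507, adjusted p = 0.157, limma). Each of its other probes was lower than in MEF and called (-0.48 to -1.12, adjusted p over probes from 1.27e-07 to 0.0201, limma).

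V6.5 ESC and MEF were joined through the deficient clones, so the dye effect taken from the other arrays enters this comparison too. At its brightest probe Pax6 was at least 5.04-fold higher in V6.5 ESC (adjusted p = 0.000198), but the probe with 10 spots gave 0.52 ± 0.242 and was not called (adjusted p over probes = 0.0897). Zic2 was higher by 1.46 ± 0.331 (adjusted p = 0.00157), a call that was lost under median centring (0.62, adjusted p = 0.248). Nes (-2.52 ± 0.227, adjusted p = 1.28e-07) and Tubb3 (-1.23 ± 0.27, adjusted p = 0.00121) were lower, and 46.8% of all genes were called (20.8% higher and 26% lower). Sox11 was not called at its brightest probe (-1.31 ± 0.802, adjusted p = 0.199, limma). Each of its other probes was lower in V6.5 ESC and called (-0.72 to -1.51, adjusted p over probes from 8.08e-05 to 0.0466, limma).

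The order of the 5 kinds by mean level differed between members; it crosses scan days, and V6.5 ESC was not tested against differentiating or control iPSC. Pax6 was at 10.17 ± 0.434 (SD, n = 3) in deficient, 9.37 ± 0.303 (n = 3) in differentiating and 9.09 ± 0.329 (n = 4) in control iPSC. V6.5 ESC lay within the range of the last 2 kinds, and MEF lay lowest. Zic2 went from 9.77 ± 0.0328 in the deficient clones, with V6.5 ESC just below them, to 8.80 ± 0.181 in controls and 8.61 ± 0.376 in differentiating clones, which overlapped, and to MEF.

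Lhx2 was at 8.67 ± 0.216 in differentiating and 8.58 ± 0.159 in deficient clones, which overlapped each other and V6.5 ESC. MEF followed at 8.23, and the controls were lowest at 7.86 ± 0.189. At its brightest probe Sox11 was highest in the differentiating clones at 10.98 ± 0.0822 and in control lines 3, 4 and 5. MEF was at 10.20 there, the deficient clones at 9.46 ± 0.182, V6.5 ESC at 9.16 and control line 6 at the low end. The order differed between Sox11 probes: at chr12:25173682-25173741 and chr12:25177775-25177834 MEF was highest, at 8.98 and 8.57.

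Nes was highest in MEF, then at 11.68 ± 0.0785 in the controls, and at 10.95 ± 0.175 in differentiating and 10.85 ± 0.180 in deficient clones, which overlapped. V6.5 ESC was lowest at 10.42. Tubb3 was highest in MEF and the deficient clones (12.10 ± 0.191), while controls (11.37 ± 0.250), differentiating clones (11.14 ± 0.202) and V6.5 ESC lay together.

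Other neural and ectodermal genes were listed by role: relatives of the members, neural patterning factors, genes of neurogenesis, and neural crest and surface ectoderm genes. Of 114 such genes 106 were measured. Between deficient and control iPSC 11 were higher and 32 lower with both kinds of line value, where 9.71% and 19.5% of all genes were. The median difference of the 106 was -0.08 against -0.06 for all genes. Among the relatives, Sox2, the Sox factor shared by neural progenitors and pluripotent cells, was higher by 0.72 ± 0.104 (adjusted p = 0.00193), while Vim, an intermediate filament that is also on the fibroblast list, was lower (-0.67 ± 0.111, adjusted p = 0.00324). Of the patterning factors Irx3 was higher (0.73 ± 0.0419), and its values, like those of Sox1, split fully by scan day. Of the genes of neurogenesis Dll1, a Notch ligand, was higher (0.81 ± 0.229) and Prom1 lower (-1.30 ± 0.149). Twist1, a neural crest and mesenchyme factor, was the 1 crest or ectoderm gene that was higher (0.68 ± 0.0592), against 6 that were lower, Sox10 among them (-0.52 ± 0.0415); Sox10 also split by day.

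Between differentiating clones and controls 3 of the 106 genes were higher and 5 lower (2.29% and 2.47% of all genes), and 3 and 3 both ways (0.921% and 1.13%). Dll1 was higher by 2.20 ± 0.302 (adjusted p = 0.0281) and Hes6 by 1.10 ± 0.187 (adjusted p = 0.0343), while Ina, a neuronal intermediate filament, was lower (-1.06 ± 0.124, adjusted p = 0.0268). Between the states of a clone 23 of the 106 were higher and 18 lower in the differentiating state, both ways (18.1% and 12.3% of all genes). Dll1 (1.38 ± 0.128) and Msx2 (0.96 ± 0.145) were among the higher genes, and Foxd3 (-1.23 ± 0.0817), Tfap2c (-1.22 ± 0.169) and Ncam1 (-1.08 ± 0.0524) among the lower. Against V6.5 ESC 8 were higher in the deficient clones and none of the 106 was lower (3.54% and 1.87% of all genes). Nefl (1.38 ± 0.212, adjusted p = 0.00115, limma) and Crmp1 (1.02 ± 0.219, adjusted p = 0.0115, limma), both of neurons, were among the higher genes. Against MEF 42 were higher and 36 lower (28.2% and 30% of all genes), with Vim at -4.21. Of 19 signals of neural induction 5 were lower and none higher in deficient than in control iPSC, both ways (19.5% and 9.71% of all genes). Fgf8 was at -2.35 ± 0.443 (adjusted p = 0.00553, limma) and the BMP antagonist Grem1 at -0.95 ± 0.176 (adjusted p = 0.00512, limma).

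Over the 12 lines and states, which share scan days, slides and 2 single RNAs, the gene most like each member was given by Pearson correlation, as a description. It was Fcho1 for Pax6 (0.972), Xpo1 for Zic2 (0.974), Fars2 for Lhx2 (0.957), Armt1 for Sox1 (0.977), Mavs for Sox3 (0.877), Sfxn1 for Sox11 (0.972), Fosl2 for Nes (0.976) and Jup for Tubb3 (0.938). The next were Ttpa (0.962), Ssu72 (0.968), Cd1d1 (0.925), Evx2 (0.974), Tcam1 (0.871), Zfand2b (0.959), Adamts2 (0.971) and Tuba1b (0.932). Among the members themselves the correlation was 0.699 for Pax6 with Zic2 and -0.805 for Pax6 with Nes.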

How the data were processed

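RNA of 36 channels on 18 two-dye Agilent arrays was analysed from the deposited scanner files, whose values are intensities per spot made by Feature Extraction, per the file headers (grid build mm7). The submitters' processing notes name limma with no version. Mean and local background intensities were corrected (normexp, offset 50), loess-normalised within and Aquantile-normalised between arrays with limma 3.58.1 in R 4.3.3. Spots of a probe were averaged, and a probe was kept where 0.5 or more of a kind's channels were well above background (36964 probes). The brightest probe stood for a gene. Line values came from a separate-channel fit with dye (intraspot correlation 0.811). Lines were compared with limma, and V6.5 ESC and MEF through the log2 ratios of the 18 arrays. On simulated data this design overcalled in comparisons that cross scan days, so plain channel means were then added as a second set of line values. The authors' deposited log2 ratio table served as an alternative, and the log10 ratios in the deposited scanner files were set against it: against Cy5 over Cy3 its columns correlated at 0.868 to 0.949 where the deficient or differentiating clone was in Cy5 and at -0.882 to -0.779 where it was in Cy3, so they hold that clone over the other channel. Their medians were -0.0106 to 0.0071, and slopes (0.743 and -0.417 at most and least) leave the log base likely but unstated. Its background and centring steps stay unknown. The number of lines limits the precision. Replicate numbers were not taken to pair samples across kinds. Same-numbered deficient and control channels deviated with correlations of 0.0761 and -0.313. These cannot settle whether a pairing existed, since the number also marks dye and partner RNA in the deficient clones and slide and clone in the controls. No 2 arrays held identical values. Members, lists and tests were chosen with earlier results of these data known. The named genes were the members, up to 2 genes called highest and 2 lowest per list and comparison, check genes, and the 2 genes most like each member; some named examples are not repeated. Alternatives are given in the closing section.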

Additional observations from a re-analysis of the deposited data

Results flagged for a closer look

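On the arrays of differentiating clones and controls, 6 pairs of clones or lines gave ratios of opposite sign on every array once the dye effect was removed. None of these differences was tested. Zic2 was below the controls on all 4 arrays of clone 8 and of clone A6 and above them on all 4 of clone B2. Before the dye effect was removed, the Zic2 ratio of clone A6 over control line 6 was 0.03. The mean log2 ratio differed by -0.665 between clones 8 and B2, and by -0.5051 between clones A6 and B2. Each clone was on 1 slide of its own, so clone and slide cannot be told apart.

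Sox11, with its dye effect of 0.29 removed, was above control line 6 and below control line 5 on all arrays, a gap of 2.175 in the mean log2 ratio. After the same step it was below line 5 and above line 3 on all arrays, a gap of -0.4907. Before that step the signs were mixed. The Sox11 ratios were then 0.19, -0.09 and -0.22 over line 3 and -0.84, 0.17 and -0.33 over line 5. For Sox3 the ratio over line 3 was below 0, and those over lines 6 and 4 above 0, on all arrays; the gaps were 0.2111 for line 6 against 3 and 0.1488 for line 4 against 3. Before the dye effect was removed, the Sox3 ratio was 0.01 over line 3 for clone A6 and -0.01 over line 4 for clone B2. Sox3 signals lay between 7.07 and 7.27 in all lines.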

How the results depend on the processing

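The direction and call of Pax6, Zic2, Nes, Tubb3 and Lhx2 between deficient and control iPSC held in all 16 alternatives run. Sox1 kept its call in 4 of them. The alternative with slide as a random block took the 18 arrays as separate values, so clones and lines count more than once there. Each alternative keeps both groups on their own scan days, so none can tell genotype from scan day. The differences ran from 0.56 to 1.40 for Pax6, 0.90 to 1.35 for Zic2 and 0.64 to 1.18 for Lhx2. They ran from 0.63 to 1.10 for Tubb3 and from -0.91 to -0.39 for Nes. Without normalization between arrays the median difference of all genes moved from -0.06 to 0.44 between deficient and control iPSC, and to -0.44 between the states, and Sox1 (0.35 and -0.35), Nes (-0.34) and Lhx2 (-0.38, the last 2 between the states) changed sign; 19381 and 20399 genes were then called, with 8 members between the states. Higher calls made up 96.6 and 5.02%, against 32.8 and 63.4%. Median centring called 5162 genes (53.2% higher) between deficient and control iPSC, 707 between differentiating and control (26.7% against 48.1%), 7530 between the states (30.1%), 8968 against MEF, and 16392 with 6 members against V6.5 ESC, where Sox3 turned to -0.39 and Zic2 was among those called. Against V6.5 ESC processed signals called 3506 genes (44.9% higher against 65.5%) and the deposited ratios 3698 (41.6%), each with 2 members, Pax6 added. Requiring every channel above background called 7702 of 17414 genes and ended the Pax6 call between V6.5 ESC and MEF (0.52). Plain channel means, added after the data were seen, called 7403, 583 and 7748 genes in the 3 comparisons of iPSC. With the replicate block, where the number marks slide and clone too, 4827 genes were called between differentiating and control iPSC. There the ratios were averaged over the control lines, so the spread between those lines was left out. Replicate numbers were not taken to pair samples across kinds. Leaving out 1 line gave 0 to 3502 genes and 0 to 2 members there (0 genes without A6 or B2, with 3766 and 4192 at unadjusted p under 0.05, limma; 1 without line 3, 28 without line 4, 3502 without line 6), 0 to 14620 genes and 0 to 4 members between the states (0 without A6, 6991 without B2), and 56 to 2579 genes and 0 to 1 members against V6.5 ESC. Deficient and control iPSC share no array, so the deposited ratios gave no value there. Dim signal limits Sox3 and 2 of the 3 Pax6 probes, the one that stands for the gene in MEF only.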
